A study of Mus musculus with 8 samples.

Results

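The RANKL response that osteoclast precursor cells still made in the presence of extracellular PRDX1 was described by comparing the 2 PRDX1 + RANKL libraries with the 2 PRDX1 + no RANKL libraries, which differ in RANKL only. Of the 25124 genes in the deposited expression table, 11700 had a mean FPKM of at least 0.5 over all 8 libraries of the series and were tested. FPKM (fragments per kilobase of transcript, scaled to the mapped reads of the library) is a level per length and per library. The cells were bone marrow-derived macrophages, grown out of mouse bone marrow with M-CSF and used as osteoclast precursors. The sample labels give C57BL/6 mice 6 to 8 weeks old, whereas the cell culture methods of the study name ICR mice as the source, so the strain is uncertain. Every culture received 30 ng/mL M-CSF for 2 days. The RANKL groups also received 100 ng/mL RANKL, and the PRDX1 groups 200 nM recombinant PRDX1 made in bacteria and freed of endotoxin by the study's methods. The same change by RANKL in cells that got no PRDX1 (no PRDX1 + RANKL against no PRDX1 + no RANKL, 2 libraries each) served as the comparison, and it shares no library with the response under PRDX1. The sources used here do not say that the cultures of a group came from separate mice, so the p-values measure the spread between these cultures, which may be technical.

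RANKL is the cytokine that turns macrophage-lineage precursors into osteoclasts, the cells that resorb bone. It binds its receptor RANK, which recruits TRAF6 and activates NF-κB in its canonical and non-canonical forms, MAP kinases and AP-1. These factors, with calcium signals from ITAM-bearing co-receptors, induce NFATc1, which in turn switches on genes of resorption (cathepsin K, TRAP, MMP9), acid secretion (V-ATPase) and cell fusion (DC-STAMP, OC-STAMP), while repressors such as IRF8 and many macrophage genes decline. PRDX1 is a peroxidase of the cytosol, and outside cells it is known to bind the receptor TLR4.

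The labelled cell type fitted its markers in all 8 libraries. The 10 macrophage and osteoclast precursor markers (Csf1r, Cd14, Cd68, Adgre1, Itgam, Lyz2, Tyrobp, Spi1, Tnfrsf11a, Fcgr1) were all tested and summed to 18133 to 18603 FPKM with PRDX1 + no RANKL and 14915 to 15329 FPKM with PRDX1 + RANKL. Lyz2 made up most of these sums, at 13856 and 14240 FPKM with PRDX1 + no RANKL and 11793 and 11358 FPKM with PRDX1 + RANKL. By log2 change under PRDX1, 8 of the 10 lay below 0 and 2 above. T and NK cell, B cell, and mast cell and basophil markers had 0 genes above the filter, with sums of at most 2.20 FPKM in any library, and the T and NK genes Cd3e, Ncr1 and Gzma were at 0 throughout. Of the 9 neutrophil and 6 stromal markers tested, limma called 0 in either direction under PRDX1, with 2 and 1 at an unadjusted p under 0.05, and both voom on recovered reads and limma with a pseudocount of 0.1 called 1 stromal gene. Both sums differed with PRDX1: the neutrophil markers summed to 52.3 to 57.1 FPKM with PRDX1 + no RANKL, 45.5 to 49.9 FPKM with PRDX1 + RANKL and 19.7 to 25.5 FPKM in the 4 libraries without PRDX1, and the stromal markers to 20.7 to 21.1, 19.8 to 23.6 and 10.1 to 12.8 FPKM. Their part in the results was not tested. In bulk RNA, fewer cells of a type and less RNA per cell cannot be told apart. Reads on genes ranged from 24542578 to 41712973 per library.

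The promoters below are those of 4 genes that RANKL raised under PRDX1 and that differ in how much of the response was left. Cxcl10, Gpr132 and Nfkb2 each hold the NF-κB consensus, and Ctsk, the gene of cathepsin K, holds the PU.1 letters GAGGAA on either strand. Each run is the 250 bases before the start site, 5′ to 3′ on the strand of the gene, from the RefSeq promoter table (GRCm38.p6). Capitals mark every match to the AP-1 motif TGANTCA, the E-box TCANGTG of the MITF/TFE factors, GAGGAA or the NF-κB consensus.
Cxcl10 at chr5:92348890-92349139, minus strand: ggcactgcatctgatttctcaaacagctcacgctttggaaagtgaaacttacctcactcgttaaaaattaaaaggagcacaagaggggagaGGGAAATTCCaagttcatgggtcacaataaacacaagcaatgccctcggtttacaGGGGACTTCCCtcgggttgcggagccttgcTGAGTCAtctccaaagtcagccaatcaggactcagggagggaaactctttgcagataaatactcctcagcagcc
Gpr132 at chr12:112860917-112861166, minus strand: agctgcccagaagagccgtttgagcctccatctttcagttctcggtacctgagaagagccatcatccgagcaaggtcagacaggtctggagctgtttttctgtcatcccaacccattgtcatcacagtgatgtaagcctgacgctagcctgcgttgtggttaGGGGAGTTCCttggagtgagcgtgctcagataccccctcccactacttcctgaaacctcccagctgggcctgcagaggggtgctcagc
Nfkb2 at chr19:46305680-46305929, plus strand: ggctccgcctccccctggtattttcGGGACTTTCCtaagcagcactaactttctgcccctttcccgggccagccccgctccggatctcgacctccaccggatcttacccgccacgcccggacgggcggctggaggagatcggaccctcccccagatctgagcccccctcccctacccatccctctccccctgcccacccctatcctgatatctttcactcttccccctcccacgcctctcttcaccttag
Ctsk at chr3:95498960-95499209, plus strand: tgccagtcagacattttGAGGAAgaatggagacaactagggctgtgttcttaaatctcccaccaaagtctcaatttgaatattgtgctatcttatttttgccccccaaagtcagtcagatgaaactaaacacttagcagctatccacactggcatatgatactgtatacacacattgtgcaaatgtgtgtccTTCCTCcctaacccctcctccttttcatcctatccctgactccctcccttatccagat

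Cxcl10 had 3 matches to the NF-κB consensus, 2 of which overlap, and 1 AP-1 match at 71 bases before the start. Promoters were found for 32 of the 47 genes looked up. In the 300-base windows around the start, the NF-κB consensus was present in 2 of the 11 promoters found among the 12 largest increases (Cxcl10 and Gpr132) and in 0 of the 9 found among the 12 largest decreases, against 8.5% of the 32817 promoter windows of the table. GAGGAA stood in 2 of these 11 (Ctsk and Fgr) and in 5 of these 9 (C1qb, Ccl12, Cd5l, Fcrls and Hpgd), against 28.3% of all windows. The AP-1 motif was found in Cxcl10 and Ctla2b (7.8% of all windows) and the E-box in C1qb (14.3%). These are descriptions of letters, and the windows say nothing of sites farther away.

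RANKL raised 529 genes and lowered 466 genes under PRDX1, which is 4.52% and 3.98% of the genes tested. A change was called at an adjusted p under 0.05 (limma with Benjamini-Hochberg adjustment) and a fold change of at least 1.5. In cells without PRDX1 it raised 1383 genes (11.8%) and lowered 1165 (9.96%). These shares are the background for every count of list members given here. At an unadjusted p under 0.05, without the fold threshold, 31.9% of all genes tested were higher and 17.4% lower under PRDX1. In each of the 529 and each of the 466, the 2 libraries with RANKL lay on the same side of both libraries without it. That follows largely from the thresholds of the call and is no separate support. The changes were moderate: 167 of the 529 and 128 of the 466 reached a fold of 2. The median over all genes tested was 0.07 under PRDX1 and 0.10 without it, on the log2(FPKM + 1) scale used for every fold change here, which understates the change of genes with low FPKM. With 2 libraries against 2, an exact two-sided permutation test of a single gene cannot go below p = 0.333.

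Genes that RANKL raised without PRDX1 mostly moved the same way under PRDX1, but less far. Of the 1383, 1314 had a positive fold change under PRDX1, 451 passed the test as higher (32.6%, against 4.52% of all genes), 927 were not called and 5 were called lower. The median gene of the 1383 kept 49.0% of its log2 change, with quartiles of 28.9% and 68.7%. The 1165 lowered genes were alike: 1136 had a negative fold change, 427 were called lower (36.7%, against 3.98%), 1 was called higher, and the median gene kept 46.8% of its log2 change. The difference of the RANKL effects was tested over all genes in the same model. That difference was positive for 527 genes (4.5% of those tested) and negative for 509 (4.35%). Of the 1383 raised genes, 460 had a called difference toward a smaller rise under PRDX1, among them the 5 called lower there, whose direction turned. A called larger effect was found for 4, and 919 had no called difference. Of the 1165 lowered genes, 479 had a called difference toward a smaller fall, among them the 1 called higher under PRDX1, whose direction turned. A larger effect was called for 0, and 686 had no called difference, which does not show that their effects were equal. The 1383 and 1165 genes were chosen by their change without PRDX1, which is also part of the difference. The shares kept and the counts of smaller effects among them therefore carry that choice. All shares kept were computed on the log2(FPKM + 1) scale only, so those of lists that differ in FPKM are not strictly comparable.

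**Figure D1:**
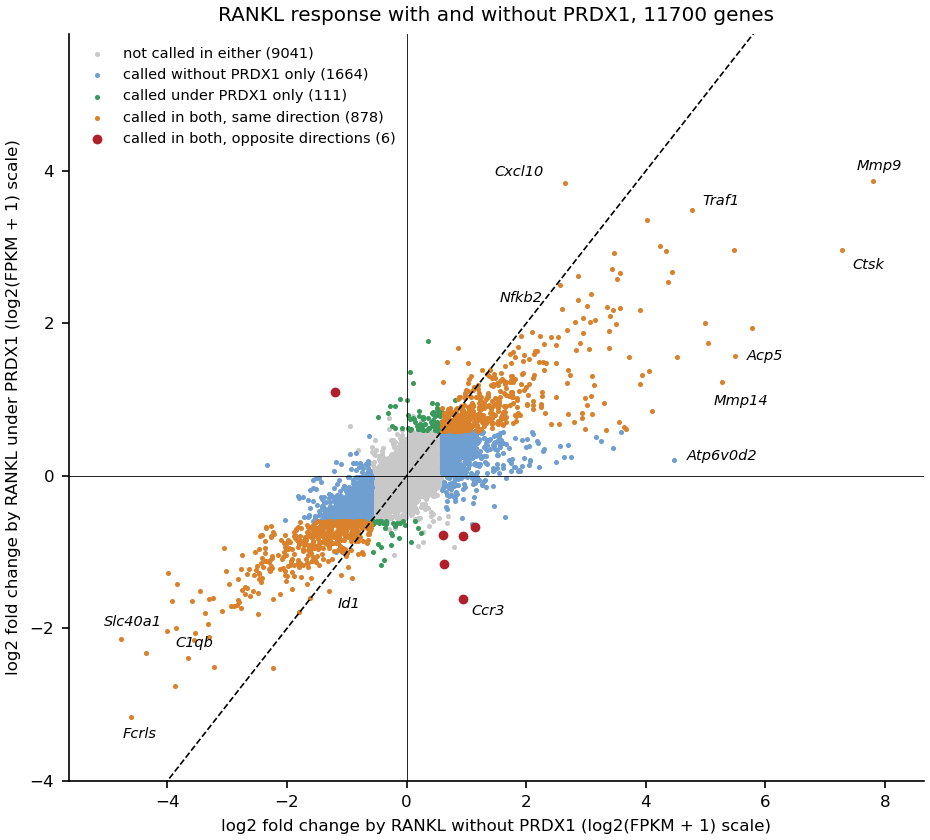
Log2 fold change by RANKL under PRDX1 (vertical axis) against that without PRDX1 (horizontal axis) for the 11700 genes tested, each a point on the log2(FPKM + 1) scale, coloured by where it was called. The dashed line marks equal effects. Of the genes called, 878 were called the same way in both, and the raised genes lie mostly between the dashed line and the horizontal axis, with Cxcl10 above the line.

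Read from the other side, most genes of the response under PRDX1 were also called without PRDX1. Of the 529 genes raised under PRDX1, 451 (85.3%) were also raised without it and 77 were not called there, 69 of these 77 with a positive fold change. Of the 466 lowered genes, 427 (91.6%) were also lowered without PRDX1 and 34 were not called there. Across all 11700 genes the log2 changes of both contrasts had a Pearson r of 0.827 and a Spearman rho of 0.759, a description across genes, which are not independent replicates. A smaller effect did not always go with a lower level. Of the 451 genes raised in both, 100 had a mean FPKM with PRDX1 + RANKL at or above that with RANKL alone. Of the 150 of them with a called smaller effect, 8 did so, and 107 had a higher mean with PRDX1 + no RANKL than with neither treatment. Of the 427 genes lowered in both, 392 had a mean at or above that with RANKL alone.

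On the log2(FPKM + 1) scale, the largest increase under PRDX1 was that of Mmp9, the gelatinase of osteoclasts. It stood at 0.929 and 1.14 FPKM in the 2 PRDX1 + no RANKL libraries and at 27.7 and 29.8 FPKM with PRDX1 + RANKL, which is a log2 change of 3.87 (SE 0.10, adjusted p = 7.75e-09). RANKL alone took it to 294 and 345 FPKM, far above the level with both treatments. Cxcl10, a chemokine induced by interferons and NF-κB, came next, at 14.9 and 17.7 FPKM without RANKL and 244 and 249.9 FPKM with it (log2 fold change 3.85, SE 0.15). Its libraries with RANKL alone had 117 and 99.01 FPKM, and among the 12 largest increases it alone had a called larger effect under PRDX1 (difference 1.20, adjusted p = 0.00333). Traf1, an adaptor of TNF receptors and a target of NF-κB, rose from 2.97 and 2.62 to 42.7 and 40.7 FPKM and reached 58.3 and 62.6 FPKM with RANKL alone.

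The other 9 were Mefv, Gpr132, Cav1, Ctsk, Fgr, C3, Vcan, Slc6a4 and Vegfc, with log2 fold changes from 2.66 to 3.36. Mefv, which encodes pyrin, rose from 0.848 and 0.845 to 17.6 and 18.4 FPKM, next to 18.9 and 19.4 FPKM with RANKL alone. C3, the central complement component, stood at 4.91 and 5.06 FPKM with PRDX1 + no RANKL and at 42.3 and 46.7 FPKM with PRDX1 + RANKL, both of the latter above the 23.1 and 24.97 FPKM of RANKL alone, and the row overlaps a microRNA gene whose reads cannot be told apart. Vcan, the matrix proteoglycan versican, rose from 1.37 and 1.503 to 15.04 and 14.9 FPKM against 17.6 and 15.95 FPKM with RANKL alone. Fgr, a Src-family kinase of myeloid cells, rose from 3.499 and 3.12 to 32.6 and 31.9 FPKM. Gpr132, a receptor coupled to G proteins, rose from 1.02 and 0.838 to 14.7 and 14.6 FPKM. Cav1, which encodes caveolin-1, rose from 20.2 and 22.2 to 174 and 171 FPKM, below the 210.1 and 190.3 FPKM of RANKL alone. Slc6a4, the serotonin transporter, had at most 8 reads per library without RANKL under PRDX1 and 6.03 and 5.72 FPKM with it. Vegfc, a lymphatic growth factor, went from 0.1700 and 0.182 to 6.68 and 6.19 FPKM. All 12 were also raised without PRDX1, 10 of them with a called smaller effect under PRDX1. Among these 12, by the ratio of mean FPKM, Slc6a4 (76.8-fold), Ctsk (40.9-fold) and Vegfc (36.6-fold) rose further than Mmp9 (27.8-fold).

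The 12 largest decreases, which included the chemokines Ccl7, Ccl12 and Ccl4, had log2 fold changes from -2.0 to -3.16. Fcrls, an Fc receptor-like scavenger receptor of resident macrophages, fell from 39.6 and 40.4 to 3.83 and 3.34 FPKM (log2 fold change -3.16, SE 0.07, adjusted p = 6.49e-09) and had 1.26 and 1.37 FPKM with RANKL alone. The monocyte chemokine Ccl7 fell from 306 and 274 to 43.6 and 40.3 FPKM, Ccl12 from 44.2 and 36.9 to 8.73 and 8.398 FPKM and Ccl4 from 76.1 and 71.5 to 15.8 and 12.2 FPKM. Each of these chemokines was lower still with RANKL alone, at means of 4.18, 1.97 and 2.52 FPKM. C1qb, a chain of complement C1q, fell from 257 and 263 to 64.7 and 61.2 FPKM, and Gas6, a ligand that bridges macrophages to dying cells, from 109 and 114 to 26.4 and 27.8 FPKM. Slc40a1, which encodes the iron exporter ferroportin, fell from 47.04 and 47.7 to 10.1 and 9.95 FPKM and to 1.15 and 1.202 FPKM with RANKL alone. Ch25h, the enzyme that makes 25-hydroxycholesterol, fell from 48.01 and 46.7 to 9.81 and 9.98 FPKM, and Hpgd, which degrades prostaglandins, from 10.95 and 11.3 to 1.25 and 1.38 FPKM. Cd5l, a secreted protein of macrophages, fell from 11.1 and 11.6 to 1.24 and 1.07 FPKM, with a log2 fold change of -2.52 under PRDX1 and -2.23 without, with no called difference (adjusted p = 0.208). Ctla2b, a protease inhibitor gene with close paralogs, and Rnase4, whose row overlaps Ang, completed the set. All 12 were also lowered without PRDX1, 11 of them with a called smaller effect under PRDX1.

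**Figure D2:**
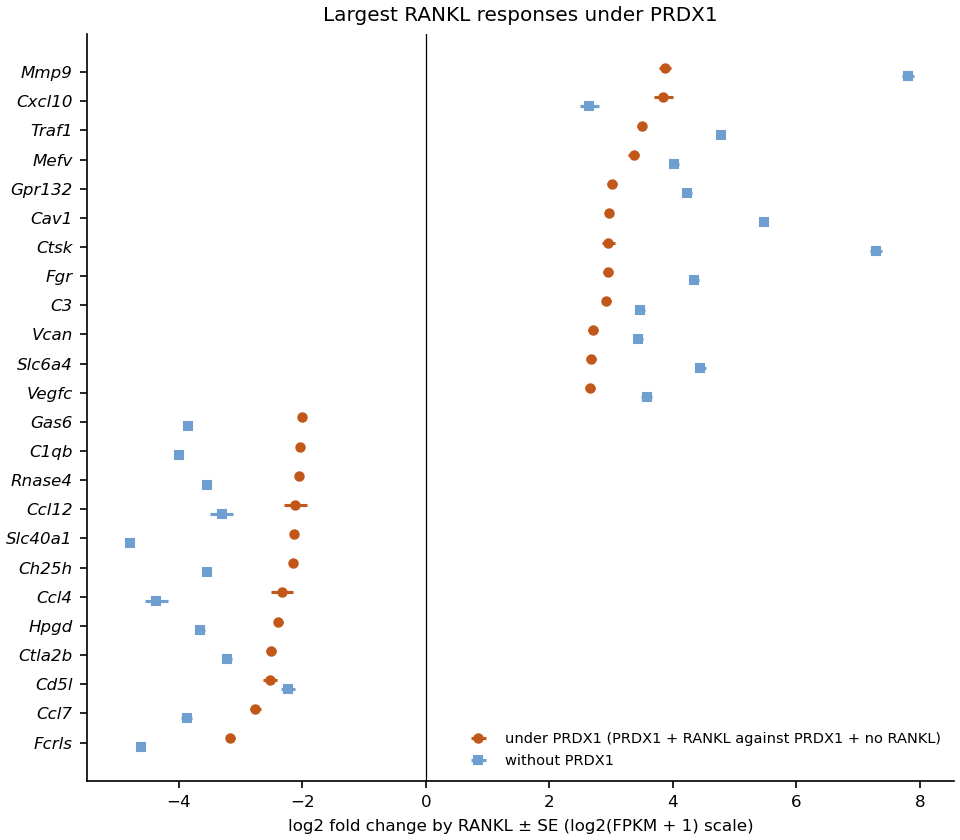
Log2 fold change by RANKL (horizontal axis, log2(FPKM + 1) scale, bars ± SE of the fit) of the 12 largest increases and 12 largest decreases under PRDX1, with circles for the response under PRDX1 and squares for that without it. The circles lie nearer to 0 than the squares for 22 of the 24 genes, the exceptions being Cxcl10 and Cd5l.

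Among the 36 genes of RANK and M-CSF receptor signaling, RANKL raised 1 and lowered 6 under PRDX1 (4.52% and 3.98% of all genes), and raised 5 and lowered 11 without it (11.8% and 9.96%). Both counts of raised genes lie near the share of all genes. Tnfrsf11a, which encodes RANK, was at 34.96 and 34.04 FPKM with PRDX1 + no RANKL and 49.5 and 49.6 FPKM with PRDX1 + RANKL, without overlap, but its log2 change of 0.51 stayed under the fold threshold. Traf6, its adaptor, had 8.44 and 7.84 FPKM without RANKL and 8.45 and 8.33 FPKM with it (log2 fold change 0.04, adjusted p = 0.695). The gene that rose was Src, the kinase of the actin ring, from 4.13 and 4.19 to 14.4 and 14.02 FPKM, and without PRDX1 + no RANKL replicate 1 or PRDX1 + RANKL replicate 1 the count of raised genes was 2. Those that fell were Csf1r, the M-CSF receptor (481 and 501 to 301 and 317 FPKM), Trem2, Fcgr3, Fcgr4, Vav3 and Lyn. Oscar, a co-receptor of osteoclasts, had 2 reads in each PRDX1 + no RANKL library and 28 and 26 reads with PRDX1 + RANKL, a log2 change of 0.37 on the scale with 1 FPKM added, which was not called. With a pseudocount of 0.1 the log2 change of Oscar was 1.72 and by voom on recovered reads 3.07, both called. Its libraries with RANKL alone had 8.88 and 11.4 FPKM. Of 25 calcium and calcineurin genes, 1 was raised under PRDX1, the kinase Camkk2 (14.7 and 14.4 to 25.6 and 25.6 FPKM), and 1 was lowered when PRDX1 + RANKL replicate 2 was left out.

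Most of the genes of the non-canonical NF-κB pathway and of NF-κB feedback that RANKL raised without PRDX1 were raised under it too. Of 24 genes, 11 rose under PRDX1, with a median log2 fold change of 0.48 against 0.07 over all genes tested, and 13 rose and 1 fell without PRDX1 (median 0.96). The 11 were among the 13, and the median of the 13 kept 72.0% of its log2 change, where the median over all 1383 raised genes was 49.0%. The other 2 of the 13 were Birc2 and Tnfaip3. Nfkb2, the p100 precursor of the non-canonical pathway, rose from 12.6 and 13.5 to 62.4 and 64.5 FPKM (log2 fold change 2.19, SE 0.10, adjusted p = 1.59e-07). With RANKL alone it had 66.01 and 78.4 FPKM, and the difference of the effects was not called (-0.41, SE 0.14, adjusted p = 0.0574). Its row overlaps Psd. Relb, the partner of p52, rose from 8.35 and 8.86 to 19.2 and 21.7 FPKM, with a difference of -0.51 that stayed under the fold threshold and passed it, at -0.60, without PRDX1 + RANKL replicate 2. Without no PRDX1 + RANKL replicate 1 the difference of Relb was -0.59 and was called too. Birc3, which encodes the ubiquitin ligase cIAP2, rose from 10.6 and 9.94 to 51.6 and 52.04 FPKM. Of the NF-κB inhibitors, Nfkbie rose from 8.04 and 8.17 to 32.4 and 30.7 FPKM and Nfkbia from 56.95 and 58.2 to 145 and 145 FPKM. Of the 13 raised genes, 6 had a called smaller effect under PRDX1, as had Ikbke, the gene lowered without PRDX1.

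Of the 28 osteoclast transcription factors, 7 rose and 2 fell under PRDX1 (median log2 fold change 0.22), against 12 and 5 without it (median 0.42). Nfatc1, the main regulator of osteoclast genes, had 7.64 and 7.76 FPKM with PRDX1 + no RANKL and 15.6 and 15.7 FPKM with PRDX1 + RANKL (log2 fold change 0.94, SE 0.08, adjusted p = 9.95e-06). Without PRDX1 it went from 9.54 and 11.1 to 50.3 and 55.4 FPKM, a change larger by 1.32 on the log2 scale (adjusted p = 2.54e-05). Fos, the AP-1 subunit upstream of it, rose from 44.5 and 38.8 to 128 and 139 FPKM under PRDX1 and from 13.8 and 13.8 to 117 and 127 FPKM without. The libraries with both treatments were thus above those with RANKL alone for Fos, although the rise was smaller (difference -1.40, adjusted p = 1.12e-05), and the level before RANKL was higher with PRDX1. Of the further AP-1 members, Junb rose from 58.4 and 55.95 to 132 and 136 FPKM and Jdp2 from 11.3 and 11.03 to 34.2 and 35.3 FPKM. Mycl, a MYC family member, rose from 0.05800 and 0.146 to 2.06 and 2.11 FPKM. The other 2 raised were Myc and Fosl1. The 2 that fell were Nr4a1 (3.21 and 3.19 to 1.12 and 1.102 FPKM) and Cebpa. Prdm1, which encodes the repressor Blimp1 that silences macrophage genes, had 1.19 and 1.03 FPKM without RANKL and 1.61 and 1.81 FPKM with it, a log2 change of 0.36 that was not called, next to 9.18 and 9.07 FPKM with RANKL alone. Ppargc1b, a coactivator of mitochondrial genes, had 0.473 and 0.426 FPKM without RANKL and 0.974 and 0.936 FPKM with it and was not called either. The 6 genes Fosl2, Mitf, Tfec, Spi1, Prdm1 and Ppargc1b were raised without PRDX1 and not called under it. Of these, Ppargc1b was called under PRDX1 with a pseudocount of 0.1 (log2 change 0.94) and by voom (1.11), and Prdm1 by voom (0.64).

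Of 29 repressors of osteoclast differentiation, 8 fell under PRDX1 (against 3.98% of all genes), 1, Socs3, rose, and 20 were not called (median -0.31), against 12 and 2 without PRDX1 (median -0.37). Irf8, the main repressor of the lineage switch, fell from 59.5 and 59.4 to 23.9 and 25.4 FPKM (log2 fold change -1.24, adjusted p = 1.59e-07), while RANKL alone took it to 7.77 and 7.72 FPKM. Maf fell from 74.5 and 72.4 to 41.1 and 39.6 FPKM, Zfp36l1, an RNA decay factor, from 18.1 and 19.4 to 9.39 and 10.1 FPKM, and Id1, an inhibitor of helix-loop-helix factors, from 106 and 110.3 to 36.5 and 38.03 FPKM. The change of Id1 was -1.51 under PRDX1 and -1.29 without, with no called difference (adjusted p = 0.106). Bcl6 overlapped between the groups, with 13.3 and 12.9 and then 12.2 and 13.1 FPKM.

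**Figure D3:**
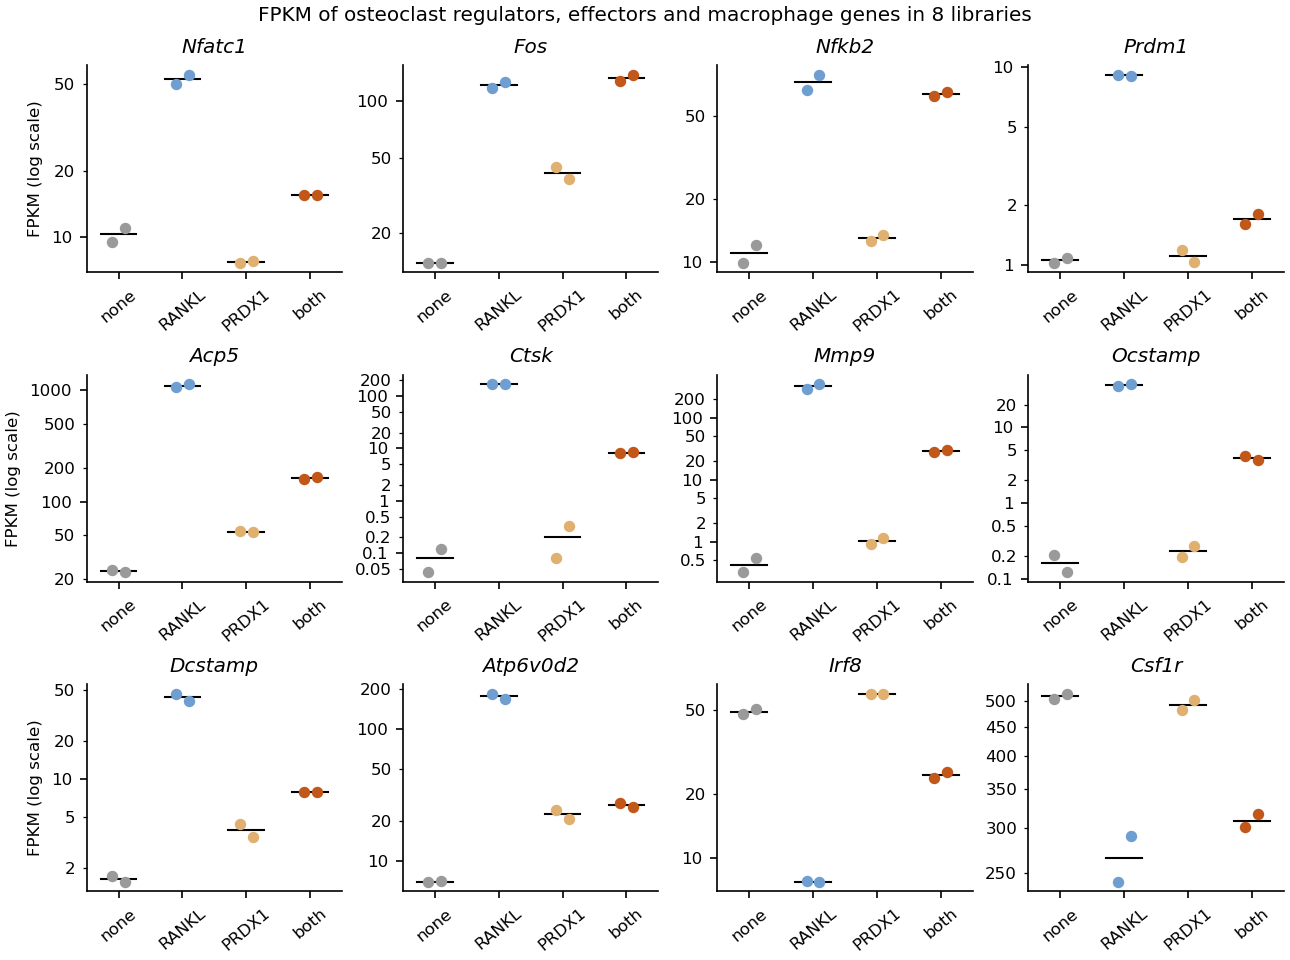
FPKM (vertical axes, log scale, a separate range in each panel) of 12 genes in the 8 libraries, by group: no PRDX1 + no RANKL (none), RANKL alone, PRDX1 alone and both. Points are libraries and bars are means of 2; for Acp5, Ctsk, Mmp9, Ocstamp and Dcstamp the libraries with both treatments lie between those with PRDX1 alone and those with RANKL alone, while for Fos they lie at the top.

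Of 27 bone resorption genes, 12 rose and 1 fell under PRDX1 (median 0.21, with 4.52% and 3.98% of all genes called), and 18 rose and 1 fell without it (median 1.21, with 11.8% and 9.96% of all genes called). Over the alternatives the median under PRDX1 ranged from 0.12 with quantile normalization to 0.69 by voom, and that without PRDX1 from 0.96 to 1.31. The 12 were all among the 18, but the median of the 18 kept 26.0% of its log2 change and 16 of them had a called smaller effect. That share is on the log2(FPKM + 1) scale, which compresses genes that start near 0 FPKM, and was computed on no other scale. Ctsk had 4 and 18 reads in the PRDX1 + no RANKL libraries and 8.12 and 8.46 FPKM with PRDX1 + RANKL (log2 fold change 2.96, SE 0.10, adjusted p = 2.39e-08), 4.93% of the 169 and 167 FPKM reached with RANKL alone. Acp5, which encodes TRAP, rose from 53.9 and 53.5 to 158 and 166 FPKM, 14.6% of its level with RANKL alone (1073 and 1137 FPKM). Car2, the carbonic anhydrase that supplies protons, rose from 5 and 6 reads to 3.24 and 2.16 FPKM, against a mean of 32.5 FPKM with RANKL alone. Slc9b2, a sodium-proton exchanger, and Mmp14, a membrane-bound metalloproteinase, followed. Slc9b2 reached 3.35 and 3.23 FPKM against a mean of 57.8 FPKM with RANKL alone, and Mmp14 32.3 and 34.9 FPKM against 72.5 FPKM. The gene that fell was Ckb, a creatine kinase, and without PRDX1 + RANKL replicate 2 the count of fallen genes was 2. Genes raised without PRDX1 and not called under it were Clcn7, Slc4a2, Snx10, Rab38, Itgav and Steap4. Calcr, the calcitonin receptor of late osteoclasts, was below the filter: it was listed at 0 in 5 libraries, at 0.007 FPKM in 1 PRDX1 + RANKL library, and at 1.04 and 1.31 FPKM with RANKL alone.

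Of the 20 V-ATPase subunits, by limma 0 rose and 1 fell under PRDX1 (median -0.05), near the 4.52% and 3.98% of all genes, and voom on recovered reads called 0 higher, whereas 7 rose and 1 fell without PRDX1 (median 0.50, against 11.8% and 9.96% of all genes), and those 7 kept a median of 5.0% of their log2 change. At an unadjusted p under 0.05 without the fold threshold, 4 subunits were higher and 6 lower under PRDX1, against 31.9% and 17.4% of all genes. Atp6v0d2, the osteoclast form of subunit d, had 24.5 and 20.97 FPKM with PRDX1 + no RANKL and 27.3 and 25.5 FPKM with PRDX1 + RANKL, a log2 change of 0.21 (SE 0.08, adjusted p = 0.0577). RANKL alone raised it from 6.96 and 7.02 to 186 and 168 FPKM, so the effects differed by -4.26 (adjusted p = 3.42e-08). The subunit that fell was Atp6v0a1, from 60.6 and 60.6 to 31.3 and 34.6 FPKM, which fell without PRDX1 too.

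Of 27 cell fusion genes, 7 rose and 1 fell under PRDX1 (median 0.21), and 13 and 4 did so without it (median 0.49). The 13 kept a median of 33.5% of their log2 change, 10 of them had a called smaller effect, and 6 were not called under PRDX1 (Atp6v0d2, Clec12a, Clec2d, Dyrk2, Mst1r and Swap70). Ocstamp rose from 0.196 and 0.276 to 4.16 and 3.73 FPKM, against 34.7 and 37.1 FPKM with RANKL alone. Dcstamp, needed for the fusion of precursors, rose from 4.42 and 3.49 to 7.96 and 7.89 FPKM, against 47.2 and 41.4 FPKM. Myo10, an unconventional myosin of cell protrusions, rose from 6.51 and 7.02 to 14.9 and 15.3 FPKM. Siglec15, a sialic acid receptor that signals through DAP12, was called at a log2 change of 0.64, and its call was lost without PRDX1 + no RANKL replicate 2 or PRDX1 + RANKL replicate 2, the lower of which left 0.46. Of 35 integrin, podosome and actin ring genes, 4 rose and 2 fell under PRDX1 (4.52% and 3.98% of all genes), against 11 and 4 without it (11.8% and 9.96%), and both counts of lowered genes lie near the share of all genes. Dock5, an exchange factor for Rac, rose from 4.002 and 4.35 to 20.6 and 20.9 FPKM, Ptk2 (focal adhesion kinase) from 4.95 and 4.68 to 8.698 and 8.06 FPKM, and Itgb3, the β3 chain of the vitronectin receptor, from 0.714 and 0.6100 to 1.53 and 1.59 FPKM. Itga6 and Itgb5 fell. Without PRDX1 + no RANKL replicate 2 the count of raised integrin and actin genes was 2, and the log2 change of Itgb3 was 0.58, under the threshold. Of 15 coupling factors, which osteoclasts release toward bone-forming cells, 3 rose (C3, Pdgfa and Sema4d) and 2 fell (Igf1 and Hgf). Igf1, the insulin-like growth factor, fell from 116 and 117 to 43.6 and 42.1 FPKM, and to 7.27 and 6.99 FPKM with RANKL alone.

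By limma with 1 FPKM added, 0 of the 29 TCA cycle genes and 0 of the 72 respiratory chain genes were called in either direction, where RANKL without PRDX1 raised 18 and 24 of them. At an unadjusted p under 0.05 without the fold threshold 19 and 41 were higher under PRDX1 (31.9% of all genes were) and 1 and 0 lower (17.4%), and both voom on recovered reads and limma with a pseudocount of 0.1 called 1 and 0 higher. Their medians stayed positive, at 0.24 and 0.13, with 26 of 29 and 65 of 72 genes above 0 against a median of 0.07 over all genes. Called smaller effects were found for 5 of the 29 and 4 of the 72 genes, where 4.35% of all genes had a called negative difference. The count of the respiratory chain lies near that share. Of 25 genes of serine synthesis and ATF4 targets, 3 rose under PRDX1 (Nupr1, Shmt2 and Slc1a5) and 9 rose without it. The count of 3 became 5 without PRDX1 + no RANKL replicate 1, 6 without PRDX1 + RANKL replicate 1 and 4 without PRDX1 + RANKL replicate 2. Of 21 glycolysis genes, 2 rose, both lactate transporters: Slc16a1 from 7.77 and 7.46 to 13.9 and 13.3 FPKM and Slc16a3 from 12.5 and 12.3 to 19.5 and 20.7 FPKM.

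Cell cycle genes had a higher median under PRDX1 (0.38) than without it (0.22), with 36 of 41 above 0, and 33 were higher and 3 lower at an unadjusted p under 0.05, without the fold threshold, against 31.9% and 17.4% of all genes. With the fold threshold the calls lay near the shares of all genes (4.52% and 3.98%): Mcm7 and Bub1 rose and Ccnd2, the cyclin induced by M-CSF, fell from 12.6 and 13.2 to 3.21 and 3.29 FPKM. Without PRDX1, 1 of the 41 was raised and 5 were lowered. The count of 1 was 2 when no PRDX1 + no RANKL replicate 2 was left out, and 3 when replicate 1 of no PRDX1 + RANKL was. Under PRDX1 the count of 2 raised genes was 1 without PRDX1 + no RANKL replicate 1 or PRDX1 + RANKL replicate 2 and 4 without PRDX1 + no RANKL replicate 2. The lowest log2 changes were 0.57 for Mcm7 and 0.58 for Bub1, both under the threshold and reached without PRDX1 + no RANKL replicate 1, without PRDX1 + RANKL replicate 2 for Mcm7 and without PRDX1 + RANKL replicate 1 for Bub1. Quantile normalization left 0 raised genes.

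Inflammatory genes moved in both directions. Of 39 genes that respond to NF-κB and TLR4, 8 rose and 5 fell under PRDX1, and 13 rose and 11 fell without it. The 5 that fell were the CC chemokines Ccl2, Ccl3, Ccl4, Ccl7 and Ccl12. Those that rose were Cxcl10, C3, Ccl22, Icam1, Tlr2, Ptges, Malt1 and Socs3. Ccl22, a chemokine of mature dendritic cells, went from 1.27 and 1.004 to 3.03 and 3.12 FPKM, and Socs3, a feedback inhibitor of cytokine signals, from 2.17 and 2.42 to 6.98 and 6.48 FPKM. Saa3, an acute phase protein, had 60.8 and 69.9 FPKM with PRDX1 + no RANKL and 62.8 and 56.8 FPKM with PRDX1 + RANKL, which overlap, while without PRDX1 RANKL raised it from 3.99 and 2.33 to 10.1 and 7.72 FPKM. Acod1, which makes itaconate, had 9.49 and 10.4 FPKM without RANKL and 14.8 and 14.8 FPKM with it, without overlap, and its log2 change of 0.53 stayed under the fold threshold, passing it at 0.59 by voom and at 0.59 without PRDX1 + no RANKL replicate 2. Tlr4 itself had 21.2 and 22.1 FPKM without RANKL and 20.6 and 19.4 FPKM with it (log2 fold change -0.11, adjusted p = 0.285), and the mouse Prdx1 gene, whose row overlaps AV051173, had 1779 and 1769.7 FPKM without RANKL and 1231 and 1182 FPKM with it, a log2 change of -0.56 under the fold threshold. The change of Prdx1 passed it, at -0.59, without PRDX1 + RANKL replicate 1.

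Of 41 interferon-stimulated genes, 3 rose under PRDX1, close to the 4.52% of all genes. They were Ifit1 (28.4 and 30.1 to 49.2 and 48.1 FPKM), Ddx58, the RNA sensor RIG-I (36.8 and 36.1 to 64.6 and 65.4 FPKM), and Gbp5, a guanylate-binding protein (2.51 and 1.43 to 3.82 and 3.58 FPKM). The log2 change of Gbp5 was 0.69, and 0.42 and not called without PRDX1 + no RANKL replicate 2. Without PRDX1 + no RANKL replicate 1 the counts were 4 raised and 1 lowered, and without PRDX1 + RANKL replicate 2 they were 3 and 1. Without PRDX1, 7 rose and 8 fell (11.8% and 9.96% of all genes), or 3 fell when no PRDX1 + no RANKL replicate 2 was left out, and 4 when replicate 2 of no PRDX1 + RANKL was. The 8 included Ifit2, Ifit3, Mx1 and Rsad2, and they kept a median of 26.7% of their log2 change. Of 11 MHC class II genes, 1 rose, Ifi30, a thiol reductase of antigen processing (265 and 255 to 429 and 411 FPKM), and 1 fell when PRDX1 + RANKL replicate 1 was left out. Of 18 costimulation and dendritic cell maturation genes, 5 rose (Cd80, Ccr7, Ccl22, Tnfsf4 and Relb) and 2 fell (Cd83 and Icosl). These 5 were among the 7 raised without PRDX1, and those 7 kept a median of 75.7% of their log2 change. Cd80 rose from 5.63 and 6.11 to 11.9 and 11.7 FPKM under PRDX1, with no called difference from its change without PRDX1 (log2 0.90 and 1.07, adjusted p = 0.283).

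Macrophage genes fell in larger number than the members of any other list. Of 37 macrophage identity and scavenger receptor genes, 21 fell and 1 rose under PRDX1 (median -0.67, against 0.07 over all genes), and 27 fell and 2 rose without it (median -1.47). The 27 kept a median of 45.8% of their log2 change, and 20 of them had a called smaller effect. Cd36, a receptor for oxidized lipids, fell from 733 and 721 to 229 and 217 FPKM, Fcgr1, the high-affinity IgG receptor, from 163 and 161 to 50.1 and 52.4 FPKM, and F13a1, a coagulation factor of macrophages, from 10.99 and 10.8 to 2.19 and 1.98 FPKM. With RANKL alone their means were 72.8, 8.49 and 2.87 FPKM. The gene that rose was Pltp, a lipid transfer protein whose row overlaps Ctsa, from 79.4 and 85.03 to 173 and 182 FPKM. Pf4, a platelet chemokine that macrophages also make, stood in the list of erythroid and megakaryocyte markers, of which 2 were tested. It fell from 809.7 and 763 to 263 and 240.4 FPKM. Ppbp, a further platelet chemokine and the other gene tested, had 1.57 and 1.95 FPKM without RANKL and 1.63 and 1.68 FPKM with it under PRDX1 and was not called, while RANKL lowered it without PRDX1. The red cell gene Hbb-bt was at 0 in all 8 libraries.

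Cholesterol synthesis genes, which RANKL lowered widely in cells without PRDX1 (18 of 24, median -0.83), had 2 called members under PRDX1, both lower (median -0.21). Under PRDX1, 14 of the 24 were lower and 1 higher at an unadjusted p under 0.05, without the fold threshold, against 17.4% and 31.9% of all genes. The 2 were Insig1, a sterol sensor partner (15.98 and 16.8 to 10.3 and 9.97 FPKM), and Fdft1, squalene synthase, whose row overlaps Ctsb (29.5 and 28.8 to 17.3 and 15.8 FPKM). The median of the 18 kept 28.5% of its log2 change, and 14 had a called smaller effect. Of 19 cholesterol efflux and LXR target genes, 4 fell (Apoe, Apoc2, Ch25h and Smpdl3a) and 2 rose, Pltp and Nr1h3. Nr1h3, the receptor LXRα itself, went from 7.52 and 7.12 to 22.5 and 22.1 FPKM, while Apoe, which carries cholesterol out of macrophages, went from 1176 and 1285 to 504 and 516 FPKM.

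Of 45 lysosome genes, 10 fell under PRDX1 (median -0.24) and 17 without it (median -0.39). The 10 were among the 17, and the median of the 17 kept 59.2% of its log2 change. Ctsb, cathepsin B, fell from 2290.5 and 2316 to 1237 and 1256 FPKM, Lgmn, the protease legumain, from 881 and 894 to 399.6 and 401 FPKM, and the hydrolase Arsb from 56.7 and 59.2 to 26.6 and 26.9 FPKM. Quantile normalization left 6 lysosome genes called, without Ctsb. Of 32 NRF2, glutathione and iron genes, 7 fell and 1 (Gpx1) rose, or 2 rose without PRDX1 + no RANKL replicate 2. Hmox1, heme oxygenase 1, fell from 421 and 422 to 171 and 171 FPKM, Gclm, a subunit of the enzyme that starts glutathione synthesis, from 137 and 135 to 66.7 and 64.1 FPKM, and Gclc, its other subunit, from 56.6 and 57.6 to 31.1 and 31.96 FPKM. The log2 change of Gclc was -0.84 under PRDX1 and -0.88 without, with no called difference (adjusted p = 0.756).

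**Figure D4:**
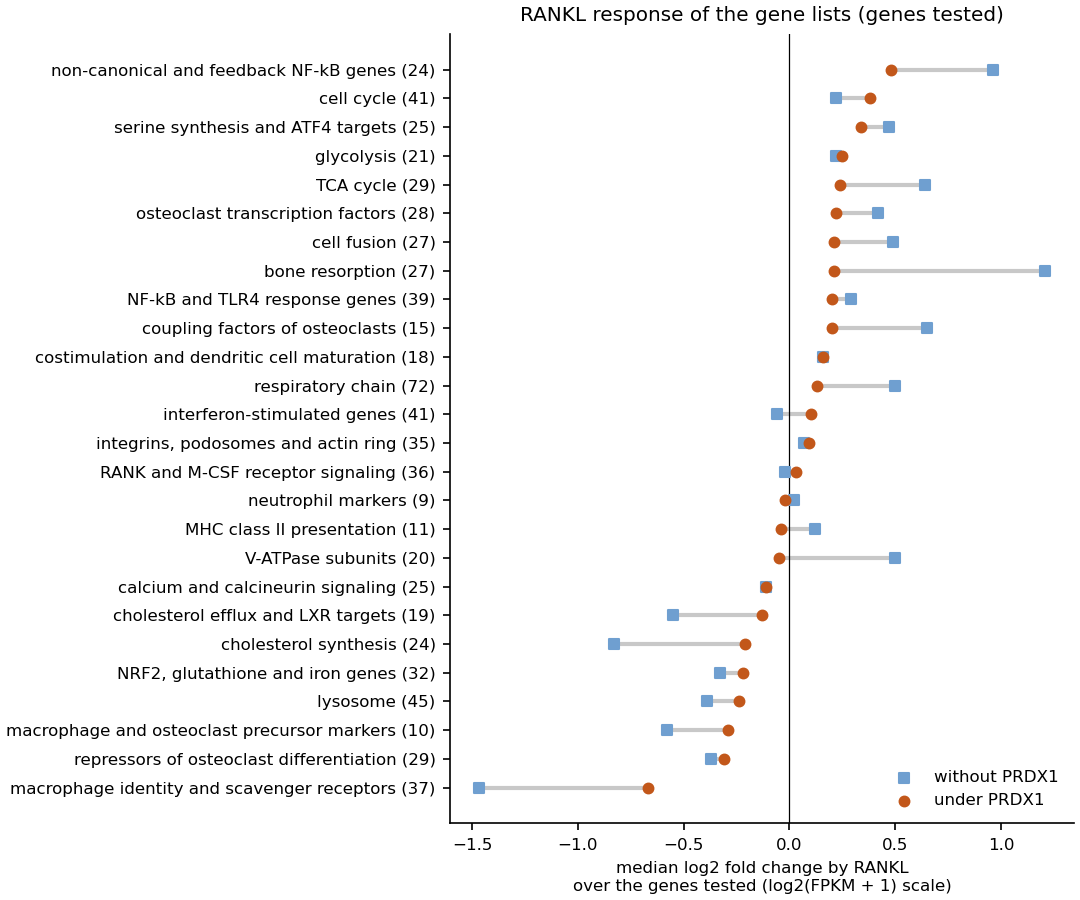
Median log2 fold change by RANKL (horizontal axis, log2(FPKM + 1) scale) of the 26 lists with at least 9 genes tested, with circles for the response under PRDX1 and squares for that without it and the number of genes tested in parentheses. The grey bars of bone resorption run from 1.21 to 0.21 and those of macrophage identity genes from -1.47 to -0.67. No test was made of a list.

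Few genes turned direction. Of 11700 genes, 6 were called in opposite directions, and 2 of these were Mir7029 and Mir7653. Both are short microRNA rows that overlap the rows of Gcn1 and Tlcd1, with at most 4 reads per library. The other 4 fell under PRDX1 and rose without it. Ccr3, an eotaxin receptor, fell from 6.67 and 7.57 to 1.51 and 1.802 FPKM under PRDX1 and rose from 1.095 and 1.13 to 3.07 and 3.02 FPKM without. Ccr1, a receptor for CC chemokines, fell from 65.3 and 63.7 to 37.5 and 36.6 FPKM and rose from 29.99 and 23.98 to 55.99 and 49.3 FPKM without PRDX1. Fabp7, a fatty acid-binding protein, fell from 119 and 107 to 68.5 and 62.5 FPKM and rose from 20.6 and 19.3 to 30.9 and 30.9 FPKM without PRDX1. Ldhb, a lactate dehydrogenase subunit, fell from 5.92 and 5.17 to 3.05 and 3.19 FPKM and rose from 3.29 and 2.24 to 6.996 and 7.45 FPKM without PRDX1. In all 4 the PRDX1 + no RANKL libraries were above both libraries with no PRDX1 + no RANKL. The call of Ldhb under PRDX1 was lost at a log2 change of -0.58 without PRDX1 + no RANKL replicate 1.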

How the data were processed

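RNA was sequenced from 8 cultures in 4 groups of 2, and the 4 PRDX1-treated libraries form the comparison described. Per the submitters' processing notes and the study's methods, the authors aligned paired-end reads to mm10 with HISAT2, counted them with HOMER over RefSeq exons on both strands, with 1 transcript per gene, and deposited FPKM values. Reads of a gene and of a gene overlapping it on either strand therefore cannot be told apart. The deposited length column was used to recover read numbers from the FPKM, and the copy column was not used. Because the values were FPKM, limma 3.58.1 (R 4.3.3) was fitted to log2(FPKM + 1) over all 8 libraries, which leaves 4 residual degrees of freedom. The 11700 genes whose mean FPKM reached 0.5 were tested, with Benjamini-Hochberg adjustment over all of them. The 13424 other genes were not tested. The scripts were tested on simulated data. Tables and figures were made with Python 3.11.15 and pandas 2.3.3. Whole reads were recovered from the FPKM within a tolerance of 0.15 reads, and give the read numbers printed and the voom alternative. No per-sample column was left unused.

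The genes named were the 12 largest increases and 12 largest decreases, up to 5 called members of each of 31 gene lists, 26 fixed genes, the 6 largest differences of the RANKL effects each way among called genes, and genes called in opposite directions. The comparison, the members and the gene lists were chosen with earlier results of these data known. Alternatives covered the pseudocount, the filter, normalization, the replicate block, the 4 libraries alone, voom, the fold threshold and leaving out each library. Some fixed genes and markers are not reported here.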

Additional observations from a re-analysis of the deposited data

Results flagged for a closer look

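The effect of RANKL under PRDX1 differed from its effect without PRDX1, by limma's test of the difference itself, for 1036 of the 11700 genes tested. A difference is the log2 fold change under PRDX1 minus that without PRDX1, and each gene below passed at an adjusted p under 0.05 and a fold of 1.5.

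The values given are those of the fixed genes, of the largest differences each way among called genes and of the genes called in opposite directions. The 6 most negative of these were Ctsk (-4.33), Atp6v0d2 (-4.26), Mmp14 (-4.05), Mmp9 (-3.94), Acp5 (-3.91) and Slc9b2 (-3.84). Car2 (-3.30), Dcstamp (-3.25), Oscar (-3.08), Siglec15 (-2.99), Ocstamp (-2.99) and Itgb3 (-2.36) were negative too. Among the fixed regulators, Prdm1 differed by -1.95, Fos by -1.40, Nfatc1 by -1.32 and Ppargc1b by -1.04. The genes that fell under PRDX1 and rose without it had differences of -2.55 (Ccr3), -1.81 (Ldhb), -1.73 (Ccr1) and -1.38 (Fabp7), and Saa3 had -1.39. Mir7653 (-1.78) and Mir7029 (2.29) rest on at most 4 reads per library.

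Most positive differences were of genes that fell less far under PRDX1. Slco2b1, an organic anion transporter, fell from 1.82 and 1.73 to 0.164 and 0.137 FPKM under PRDX1 and from 18.1 and 17.2 to 0.118 and 0.232 FPKM without it (difference 2.72). With RANKL it was near 0 in both settings, and its difference goes with the lower start with PRDX1 (means of 1.78 against 17.7 FPKM). Slc40a1 differed by 2.65, Igf1 by 2.43, Pf4 by 2.28 and Irf8 by 1.28. Stab1, a scavenger receptor, fell from 97.9 and 107 to 50.3 and 55.3 FPKM under PRDX1 and from 168 and 170.4 to 19.2 and 20.01 FPKM without it (difference 2.11). Cxcl10, which rose in both, differed by 1.20. The same test gave differences of 1.31 for Serpinb2, 1.11 for Slc2a6, 0.62 for Cxcl11, 0.60 for Tlr2, -0.72 for Id2 and -0.95 for Ckb, 6 genes chosen after their values were seen.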

How the results depend on the processing

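At a fold of 2 the counts were smaller: 167 raised and 128 lowered under PRDX1, 508 and 517 without it, 335 differences, and 151 and 119 genes called the same way in both. No other alternative moved these counts by over 1.5 times. Genes raised and lowered under PRDX1 numbered 712 and 605 with a pseudocount of 0.1 and 793 and 612 by voom, and quantile normalization left more lowered than raised, 457 and 563, as it did without PRDX1 (1088 and 1322), where upper quartile scaling did too (1180 and 1270). Leaving out each library gave 528 to 562 raised and 466 to 487 lowered genes.

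Deviations of samples with the same replicate number correlated weakly across genes (0.008 to 0.096). With 2 libraries a group this cannot show whether such samples shared a mouse, a pool of cells or a batch. With the replicate block the counts under PRDX1 were 528 and 466, and 1042 genes differed in effect.

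A few small values changed sign. The difference of Acod1 was between -0.14 and 0.039 when each library was left out, at 0.039, 0.008 and 0.027 without replicate 2 of no PRDX1 + no RANKL, PRDX1 + no RANKL and no PRDX1 + RANKL. The log2 change of Bcl6 was 0.003 without PRDX1 + RANKL replicate 1 (range -0.10 to 0.003). That of Traf6 was -0.035 under quantile normalization and -0.009 without PRDX1 + no RANKL replicate 2 (range -0.009 to 0.086). The median of interferon-stimulated genes without PRDX1 was 0.066 without no PRDX1 + no RANKL replicate 2 (range -0.116 to 0.066). List medians near 0 changed sign too: RANK and M-CSF receptor signaling ran from -0.03 to 0.05 under PRDX1 and from -0.10 to 0.03 without it, neutrophil markers from -0.18 to 0.00 and from -0.10 to 0.36, and stromal markers from -0.13 to 0.09 and from -0.08 to 0.08. The cause was not tested. Over all alternatives, named log2 changes lost their call in 13 cases and gained it in 8, and stayed on the same side of the threshold in 1889. Medians of lists moved by more than the spread between libraries in 225 cases and by less in 670. With 2 cultures a group and 4 residual degrees of freedom, small changes and genes with few reads are estimated poorly.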

Other observations

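A called difference in the direction of the change under PRDX1 was found for 19 of the 529 raised genes and 11 of the 466 lowered genes. These include the 6 genes called in opposite directions, which turned direction and did not simply respond further. Those named here were chosen after their values were seen. Serpinb2, a serine protease inhibitor of activated macrophages, had 0.553 and 0.736 FPKM with PRDX1 + no RANKL and 3.499 and 2.94 FPKM with PRDX1 + RANKL. Without PRDX1 its libraries lay at 0.207 and 0.329 FPKM before RANKL and 0.392 and 0.236 FPKM after, which overlap. Slc2a6, a sugar transporter of activated macrophages, stood at 6.53 and 7.53 FPKM with PRDX1 + no RANKL and at 13.9 and 14.4 FPKM with PRDX1 + RANKL, while without PRDX1 it went from 12.5 and 12.4 to 10.2 and 11.3 FPKM and was not called. Tlr2, a receptor for bacterial lipoproteins, rose from 45.6 and 44.5 to 70.9 and 69.2 FPKM under PRDX1 and lay at 43.5 and 39.6 and 43.4 and 41.2 FPKM without it, before and after RANKL. Cxcl11, a chemokine of the same receptor as Cxcl10, had at most 0.041 FPKM with PRDX1 + no RANKL and 1.702 and 1.19 FPKM with PRDX1 + RANKL, against 0.428 and 0.62 FPKM with RANKL alone.

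Of the lowered genes, Ckb, which the list of bone resorption genes holds, fell from 242 and 241 to 127 and 137 FPKM under PRDX1 and was not called without it, at 309 and 328 FPKM before RANKL and 312 and 363 FPKM after. Id2, an inhibitor of helix-loop-helix factors, fell from 215 and 193 to 136 and 135 FPKM under PRDX1, where its level remained above the 63.1 and 59.3 FPKM of RANKL alone. The Raet1 genes and Bcl2a1b, also among these genes, have near-identical copies, so their counts are uncertain.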
